A study of Rattus norvegicus with 18 samples.

Results

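The GABAergic interneuron identity genes were followed in primary rat cortical neurons in which the brain chromatin remodeling enzyme CHD5 was depleted by shRNA. The group held 9 genes, Gad1, Gad2, Dlx1, Dlx2, Dlx5, Lhx6, Satb1, Calb2 and Pvalb, which were chosen by name and matched through the gene symbol of each probe. All 9 were found among the 21563 gene symbols of the array, and 8 were detected on all 18 arrays. The 8 detected genes were tested among the 11079 probes that passed the detection limit on at least 1 array. Pvalb was not detected on any array.

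The study asked which genes depend on CHD5 in neurons, and measured total RNA on Illumina RatRef-12 BeadChips. The paper also reports quantitative PCR on independent samples, in which Dlx1 mRNA was reduced after CHD5 depletion. Those PCR measurements are not part of the data used here. Neurons from the cortex of embryonic rats were infected for 6 hours on the day after plating. One set of cultures received a pLKO.1 lentivirus with shRNA against CHD5 (CHD5 shRNA) and the other a scrambled shRNA in the same vector (control). RNA was taken on day 5, day 9 and day 12, which gave 6 groups of 3 arrays, with the replicates labelled a, b and c. Both arms thus carried a lentivirus, and no uninfected culture was among the samples. The strain of the rats was not given in the sources used here. No source said that a, b and c were separate cultures, so the p-values measure the spread between these arrays, which may be technical. No probe of the array carried the symbol Chd5 (0 of 22523), so the depletion itself was not checked here.

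GABAergic interneurons are the inhibitory neurons of the cortex. They arise outside it, in the ganglionic eminences of the ventral forebrain, and migrate in. There the homeobox factors of the Dlx family switch on the program for making the transmitter GABA, and Lhx6 and Satb1 act later in cells from the medial eminence, the source of the parvalbumin and somatostatin classes. The enzymes encoded by Gad1 and Gad2 make GABA from glutamate. Calb2 (calretinin) and Pvalb (parvalbumin) encode calcium-binding proteins that mark separate classes of mature interneurons, and parvalbumin appears late in development.

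Each value below rests on 1 probe of 50 bases per gene. The probes whose values carry the results are given here by their first 30 bases, 5′ to 3′, as the array table lists them, so that the measured stretch of each transcript can be found. Both Satb1 probes are shown, since their readings differ.
Gad1: tcccccctcaggctgtacgtcaggtgttct
Dlx1: gctcgaccacagaacacaagtcatcaccct
Dlx2: tgtaaaccgccccccagttgtgaaagctgc
Dlx5: cctccgggacgctttattagatgggctact
Satb1, probe used: actgcttggcggccccaggtgaagcgtcaa
Satb1, other probe: ctagaggcgttttcttaccaagcctgctga
Calb2: gttggtgggtaggggcacaggtggggcttc

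The array table places the Gad1, Dlx1, Dlx2 and Lhx6 probes on chromosome 3. The Dlx1 and Dlx2 probes lie 10.04 kb apart there, as the paired Dlx genes are neighbours. Dlx5 is listed on chromosome 4, Satb1 on chromosome 9 and Calb2 on chromosome 19. The Satb1 probe used starts at base 2748 of its transcript and was detected on all 18 arrays, with a mean signal of 1543. The other is listed at base 2077 of a transcript and was detected on 0 of 18 arrays, with signals between 53.1 and 96.3. The Satb1 results therefore describe 1 of the 2 probes.

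The 9 genes differed in how far they rose above the background of the array, which lay between 65.3 and 81.8 signal units. Signals were deposited without normalization. Gad1 was far above background, with a mean signal of 4703 ± 1223 (SD, n = 3) in the day 5 controls against 4844 ± 822 with CHD5 shRNA. Dlx1, Dlx5 and Satb1 were well above background in every group. Gad2, Dlx2, Lhx6 and Calb2 were dimmer, with group means between 2.13 and 5.54 times the background. Pvalb ran from 60.4 to 84.8 on the 18 arrays, which is background, and no change in it was measurable. Because background is not subtracted, a fold change of the dim probes is smaller on this scale than in the RNA.

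**Figure D1:**
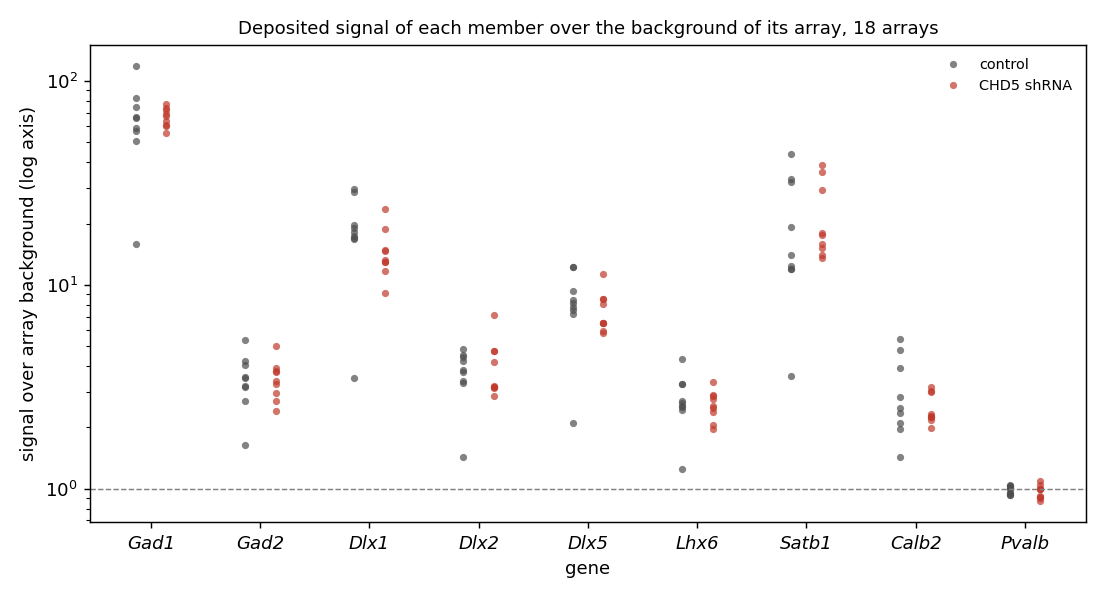
Deposited signal of each of the 9 genes divided by the background of its array (log axis), 1 point per array, with 9 control and 9 CHD5 shRNA arrays. Pvalb sits at the dashed line that marks background, and the lowest control point of each of the 8 detected genes is replicate b of day 9.

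One array stood apart. Replicate b of the day 9 controls had a mean signal of 135, against 400.2 to 789 on the other 17, and detected 7047 probes against 8360 to 9931. Its highest correlation with another array was 0.955. All levels below are log2 signals brought to a common mean and spread on each array (normalized log2), and the differences on day 9 and calls that it moved most are also given without it. The difference between groups was tested with limma on all 18 arrays, with Benjamini-Hochberg adjustment over the 11079 probes and a limit of 0.05.

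On day 5 none of the 8 genes was called different between CHD5 shRNA and control. Over all probes 0.171% were called on that day. The differences of the members ran from -0.31 (Gad2) to 0.25 (Dlx2) on the log2 scale, with a median of -0.10 against 0.01 over all probes. By limma, 0 of the 8 had an unadjusted p under 0.05. The 3 arrays of each group did not overlap for 1 member, Dlx2, and for 11.0% of all probes. Dlx2 levels were 8.27, 8.59 and 8.36 with CHD5 shRNA and 7.99, 8.22 and 8.26 in the controls, so the lowest depleted array was just above the highest control. That difference of 0.25 (SE 0.13) had a limma adjusted p of 0.96.

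Among the members called with all 18 arrays, Calb2 showed the largest effect of depletion, on day 12. The day 12 control arrays gave signals of 383, 286 and 362, and the CHD5 shRNA arrays 228, 208 and 206. On the normalized log2 scale the controls were at 8.47, 8.15 and 8.33 and the depleted arrays all at 7.70. Every control array lay above every depleted array, and the depleted arrays were nearly identical. Calb2 fell by 0.62 (SE 0.10, 95% interval -0.83 to -0.40), 1.53-fold lower, with a limma adjusted p of 0.0016. It was the only member called on day 12 (1 of 8), when 5.47% of all probes were called. Only 1.58% of the tested probes had a lower difference on that day.

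In the controls Calb2 was at 7.17 ± 0.15 (SD, n = 3) on day 5, 7.57 ± 0.13 on day 9 and 8.32 ± 0.16 on day 12. It rose by 0.40 from day 5 to day 9 (SE 0.10, limma adjusted p = 0.0103) and by 0.75 from day 9 to day 12 (SE 0.10, limma adjusted p = 0.000312). With CHD5 shRNA the levels were 7.17 ± 0.07, 7.40 ± 0.07 and 7.70 ± 0.0036. The steps of 0.23 and 0.30 between those days did not pass the limit on their own (limma adjusted p = 0.18 and 0.254). From day 5 to day 12 Calb2 rose in both arms, by 1.15 in the controls (limma adjusted p = 1.53e-07) and by 0.53 with CHD5 shRNA (limma adjusted p = 0.00149). The change of the CHD5 shRNA effect between day 5 and day 12 was -0.62 (SE 0.15), and its limma adjusted p was 0.106. For that change 0 of 8 members and 0.153% of all probes were called. Without replicate b of the day 9 controls, which is in neither group but adds to the shared spread, the same change was -0.63 with a limma adjusted p of 0.0129. The rise from day 5 to day 9 in the controls was not called without replicate a of the day 5 controls (0.33, limma adjusted p = 0.0547).

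Markers of glia moved with the same groups. The share of all probes called, in either direction, was 5.47% on day 12. On day 12, 6 of 11 astrocyte markers were called lower with CHD5 shRNA and 0 higher, with a median of -0.61 against 0.01 over all probes. Their summed signal ran from 94410 to 101400 in the controls and from 65110 to 72790 after depletion. Astrocyte markers also rose during culture, with 10 of 11 called higher from day 5 to day 12 in both arms. Among all probes 23.6% were called over these days in the controls and 17.0% after depletion. Of 9 oligodendrocyte lineage markers 2 were called lower on day 12, at a median of -0.22, and of 5 markers of endothelial cells, pericytes and fibroblasts 2 were lower, at a median of -0.07. Of 10 general neuronal markers 2 were higher and 0 lower, at a median of 0.21. The part of these shifts in the Calb2 difference was not tested. In such whole cultures, fewer cells with Calb2 RNA and less of it per cell cannot be told apart. Which cells carried it was not measured.

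Satb1, which encodes a nuclear protein that organizes chromatin and is needed for maturing interneurons, moved the other way. On day 9 its levels were 10.35, 10.31 and 10.38 with CHD5 shRNA and 10.02, 9.83 and 9.86 in the controls. All depleted arrays lay above all controls. The difference was 0.44 higher (SE 0.10, 95% interval 0.24 to 0.65), 1.36-fold, with a limma adjusted p of 0.0133. Satb1 was the only member called on day 9 (1 of 8), when 5.89% of all probes were called. Under quantile normalization and under neqc the member called on that day was Dlx1 in place of Satb1. Satb1 was also the only member whose groups did not overlap on that day, against 20.6% of all probes. Without replicate b of the day 9 controls the difference was 0.42 (limma adjusted p = 0.0109). The call was lost without replicate a (limma adjusted p = 0.0542) or replicate c (0.0824) of the day 9 CHD5 shRNA arrays, and it was lost under quantile normalization, where the difference was 0.30 (limma adjusted p = 0.0912), and neqc, where it was 0.32 (limma adjusted p = 0.129). On day 12 Satb1 was 10.14, 9.94 and 9.91 after depletion and 9.82, 9.77 and 9.63 in the controls, again with no overlap. That difference of 0.26 (SE 0.10) was not called (limma adjusted p = 0.165).

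**Figure D2:**
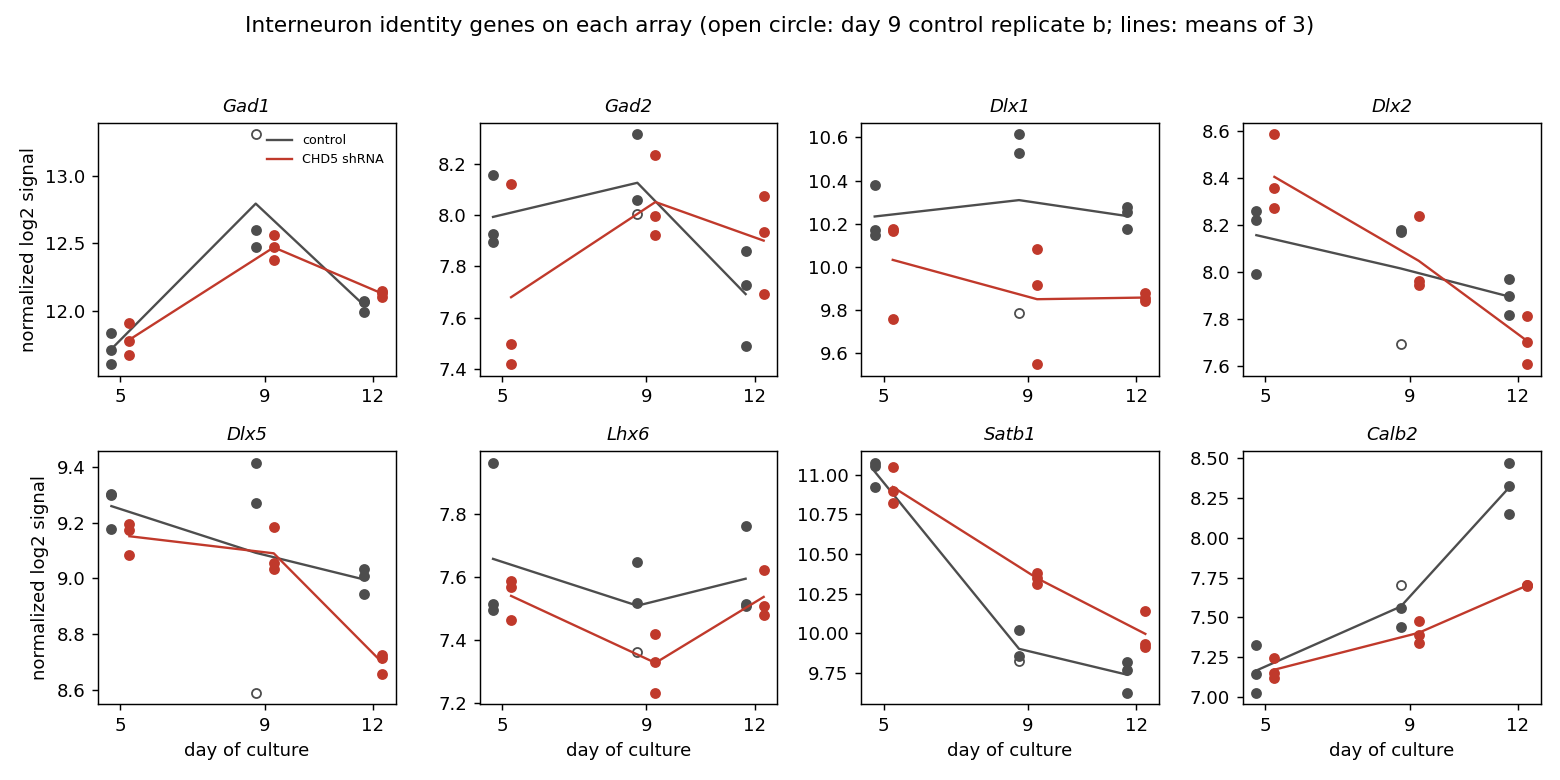
Normalized log2 signal of the 8 detected genes on each array by day of culture, with control arrays in grey and CHD5 shRNA arrays in red and lines through the means of 3. Calb2 separates on day 12 (7.70 against 8.32) and Satb1 on day 9 (10.35 against 9.90). The open circle is replicate b of the day 9 controls. It is the highest of the day 9 arrays for Gad1 and Calb2 and the lowest for Dlx2, Dlx5 and Satb1.

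Satb1 was the member that fell most during culture. Control signals were 3572, 2500 and 2346 on day 5 and 1277, 233 and 825 on day 9, where the low value is the array that stands apart. On the normalized scale Satb1 went from 11.02 ± 0.08 (SD, n = 3) on day 5 to 9.90 ± 0.11 on day 9 and 9.74 ± 0.10 on day 12. It fell by 1.12 from day 5 to day 9 in the controls (SE 0.10, limma adjusted p = 3.38e-07), which is 2.17-fold. With CHD5 shRNA it went from 10.92 ± 0.12 to 10.35 ± 0.03 and 9.998 ± 0.126. That first step was -0.57 (SE 0.10, limma adjusted p = 0.00112), and the second was -0.35 (limma adjusted p = 0.106). Over the whole course Satb1 fell by 1.28 in the controls (limma adjusted p = 1.53e-08) and by 0.93 after depletion (limma adjusted p = 2.09e-06). The change of the depletion effect from day 5 to day 12 was 0.35 and did not pass the limit (limma adjusted p = 0.518). On day 9, 6 of 11 astrocyte markers were called lower with CHD5 shRNA, at a median of -1.09 against -0.02 over all probes. Their summed signals were 23650 to 71300 in the controls and 43890 to 53950 after depletion, ranges that overlap through the array that stands apart. Excitatory cortical neuron markers had 2 of 8 called higher and 0 lower on day 9, at a median of 0.18. General neuronal markers had 2 of 10 higher and 0 lower, at a median of 0.11. The share of all probes called was 5.89% on that day. From day 5 to day 9 in the controls, 4 of 8 excitatory and 4 of 10 general markers were called lower and 0 higher, against 22.0% of all probes. The part of these 3 lists in the Satb1 values was not tested.

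The Dlx genes, the transcription factors at the head of the interneuron program, were mostly lower after depletion without passing the limit. Dlx1 on day 12 was at 9.88, 9.86 and 9.84 with CHD5 shRNA and at 10.18, 10.25 and 10.28 in the controls. The 2 groups did not overlap, and each varied little. The difference was -0.38 (SE 0.18, limma adjusted p = 0.311), where the standard error is that of all 6 groups together. On day 9 Dlx1 was at 10.08, 9.92 and 9.55 after depletion against 10.61, 9.79 and 10.53, and the groups overlapped only through control replicate b. That difference was -0.46 (SE 0.18, limma adjusted p = 0.145). Without the array of control replicate b it was -0.74 on day 9 (limma adjusted p = 0.00164) and -0.39 on day 12 (limma adjusted p = 0.0429), so that Dlx1 on day 9 was then further from 0 than Calb2 on day 12 (-0.63). With all arrays Dlx1 on day 9 was also called under quantile normalization (-0.60, limma adjusted p = 0.00455) and neqc (-0.64, limma adjusted p = 0.0115). On day 5 Dlx1 differed by -0.20 with overlapping groups (limma adjusted p = 0.999).

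Dlx1 was further set against Gad1 on the same array, a ratio of unnormalized signals. A factor common to an array cancels in it, but a difference in spread between arrays does not. The log2 ratio of Dlx1 to Gad1 was lower after depletion by -0.29 on day 5, -0.47 on day 9 and -0.44 on day 12. On day 12 it lay between -2.31 and -2.24 on the depleted arrays and between -1.86 and -1.82 on the controls, so the groups were apart by far more than their SD of 0.03 each. On day 9 the unnormalized ratios did not overlap either, replicate b of the controls included. That array had a log2 SD of 1.11, against 1.72 to 2.02 on the others, and the ratio does not correct for this. On the normalized scale it had Dlx1 at 9.79 and Gad1 at 13.31, and the day 9 groups would overlap. The exact two-sided permutation p of the ratio was 0.1 on day 9 and day 12, the smallest that 3 against 3 arrays allow, and 0.2 on day 5. Of 21 such ratios, 7 genes on 3 days, 6 reached 0.1, which adjusts to 0.35 over the 21. The ratio shows unequal change of the 2 probes and not which of them moved.

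Dlx5 on day 12 was at 8.72, 8.66 and 8.71 after depletion and at 8.94, 9.04 and 9.01 in the controls. The groups did not overlap, and the difference was -0.30 (SE 0.15, limma adjusted p = 0.333). Without replicate b of the day 9 controls it was -0.30 with a limma adjusted p of 0.0101. Dlx2 on day 12 was at 7.70, 7.61 and 7.81 after depletion and 7.82, 7.90 and 7.97 in the controls, a narrow gap. The difference was -0.19 (SE 0.13, limma adjusted p = 0.587). Differences on day 9 were 0.03 for Dlx2 and -0.002 for Dlx5, with overlapping groups for both. Dlx5 on day 9 was -0.26 without replicate b of the controls (limma adjusted p = 0.0563). The sign of either turned under some other settings.

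**Figure D3:**
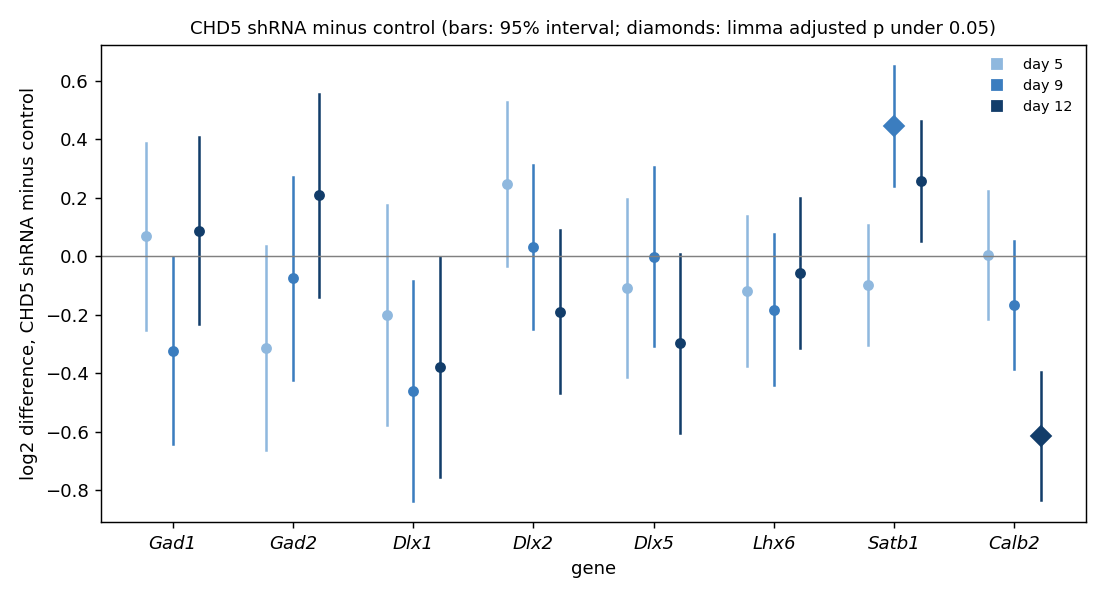
Log2 difference between CHD5 shRNA and control for the 8 detected genes on each day, with bars for the 95% interval of limma and diamonds where the adjusted p was under 0.05. Only Satb1 on day 9 (0.44) and Calb2 on day 12 (-0.62) are diamonds, and Dlx1 is below 0 on all 3 days.

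Over all 8 tested members on day 12, the groups of 3 did not overlap for 6, against 38.2% of all probes. Gad1 and Satb1 were higher after depletion and Dlx1, Dlx2, Dlx5 and Calb2 lower among these 6. The median of the members was -0.12 on both day 9 and day 12. Lhx6, a factor that directs cells of the medial eminence, had overlapping groups on every day, with differences of -0.12, -0.18 and -0.06 (limma adjusted p from 0.422 to 0.999). Its 95% interval on day 9 reached from -0.44 to 0.07.

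Of the genes for GABA synthesis, Gad1 was not called on any day between the arms. Gad1 on day 12 was at 12.15, 12.14 and 12.11 after depletion and 11.99, 12.07 and 12.06 in the controls. These groups lay side by side without overlap, 0.09 apart (SE 0.15, limma adjusted p = 0.936). On day 9 the depleted arrays were at 12.47, 12.56 and 12.38 and the controls at 12.48, 13.31 and 12.60, where the highest is the array that stands apart. The difference was -0.32 (SE 0.15, limma adjusted p = 0.241). Without that array, control replicate b, it was -0.07 (limma adjusted p = 0.666), and without control replicate a, which leaves replicate b with more weight, it was -0.48 (limma adjusted p = 0.04). Gad2 had overlapping groups on all 3 days, with differences of -0.31, -0.07 and 0.21 (limma adjusted p from 0.658 to 0.954).

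Gad1 changed with time in culture more than with depletion. In the controls it went from 11.72 ± 0.11 (SD, n = 3) on day 5 to 12.79 ± 0.45 on day 9 and 12.04 ± 0.05 on day 12. It rose by 1.07 (SE 0.15, limma adjusted p = 7.47e-05) and then fell by 0.75 (limma adjusted p = 0.0073). With CHD5 shRNA it rose by 0.68 from day 5 to day 9 (limma adjusted p = 0.00866), and the next step of -0.34 was not called (limma adjusted p = 0.454). Under the 28 alternatives the rise after depletion ran from 0.39 to 0.74. It was not called under median centring, with no detection filter, or without replicate b of the day 5 CHD5 shRNA arrays (0.62, limma adjusted p = 0.051 without that array). These changes are relative to the other probes of each array. The deposited Gad1 signals themselves averaged 4703 on day 5, 4814 on day 9 and 4682 on day 12 in the controls. With CHD5 shRNA they averaged 4844, 4718 and 4611 on these days. The mean signal over all probes was 515 to 789 on the day 5 control arrays and 135 to 573 on those of day 9. With arrays centred on the median but not scaled, the rise in the controls was 0.33 and was not called (limma adjusted p = 0.315), and the step from day 9 to day 12 was -0.13 (limma adjusted p = 0.75). That step was also not called in a fit of the compared groups alone (-0.75, limma adjusted p = 0.352). Without replicate b of the day 9 controls Gad1 rose by 0.84 (limma adjusted p = 1.7e-06) and fell by 0.51 (limma adjusted p = 0.00198) in the controls.

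**Figure D4:**
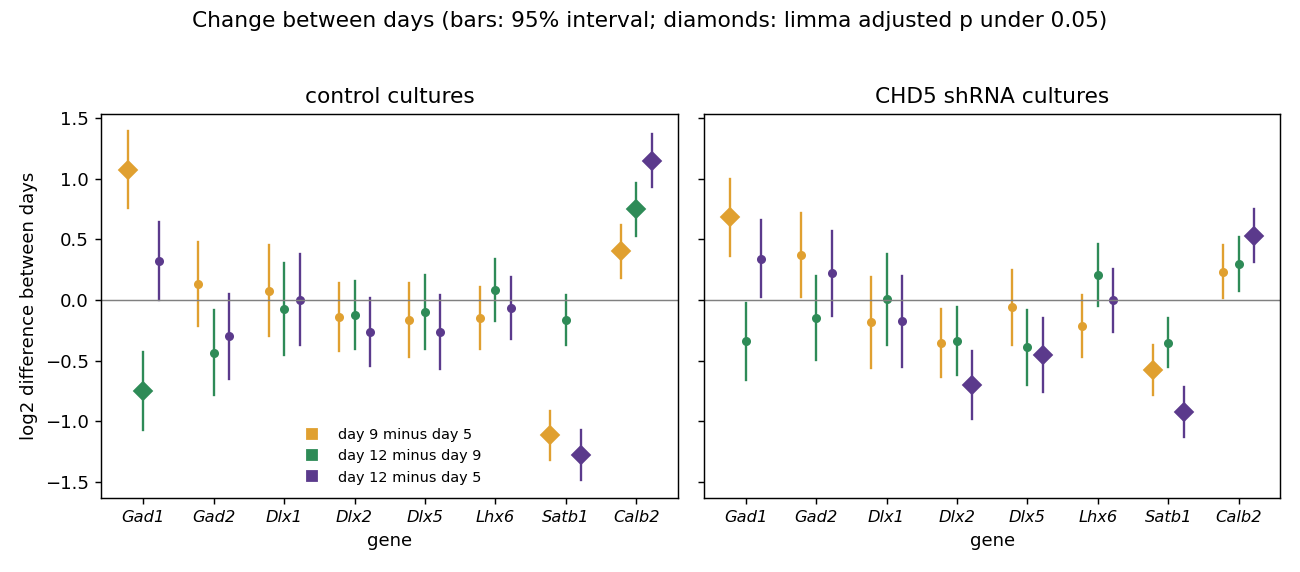
Log2 difference between days for the 8 detected genes, in control cultures (left) and CHD5 shRNA cultures (right), with 95% intervals of limma and diamonds where the adjusted p was under 0.05. Calb2 rises and Satb1 falls from day 5 to day 12 in both panels, and the Dlx2 and Dlx5 diamonds are in the right panel alone.

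By comparison across the days, 3 of 8 members were called from day 5 to day 9 in the controls (Gad1, Calb2 and Satb1), against 22.0% of all probes. From day 9 to day 12 the controls had 2 of 8 called (Gad1 and Calb2), against 4.16%. With CHD5 shRNA 2 of 8 were called from day 5 to day 9 (Gad1 and Satb1), against 9.33%, and 0 of 8 from day 9 to day 12, against 1.37%, though limma gave 5 of the 8 an unadjusted p under 0.05 there, against 9.82% of all probes. Without replicate b of the day 9 controls 3 of 8 were called in that comparison, Gad1, Dlx5 and Satb1, against 4.91% of all probes. From day 5 to day 12, a contrast added after the data were seen, 2 of 8 were called in the controls (23.6% of all probes) and 4 of 8 after depletion (17.0%). Without replicate b of the day 9 controls the count of members called in the controls was 5, against 38.4% of all probes. The additional 2 after depletion, with all arrays, were Dlx2 and Dlx5. Dlx2 went from 8.41 ± 0.16 (SD, n = 3) to 7.71 ± 0.10, a fall of 0.70 on the log2 scale (limma adjusted p = 0.00116). In the controls it went from 8.16 ± 0.14 to 7.90 ± 0.08, which was -0.26 (limma adjusted p = 0.177). The change of the depletion effect that sets these falls against each other was -0.44 for Dlx2 and not called (limma adjusted p = 0.626). Dlx5 was -0.45 after depletion (limma adjusted p = 0.0392) and -0.26 in the controls (limma adjusted p = 0.216), and the former was not called in 11 of the 18 fits that left out 1 array each. Dlx1 and Lhx6 were not called between any days in either arm.

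Other genes of the interneuron program were read from lists. The share of all probes called on day 12, in either direction, was 5.47%. Of 11 further interneuron transcription factors tested, 0 were called higher and 2 lower on day 12, at a median of -0.13. Nkx6-2, also a gene of oligodendrocytes, was one of them at -0.63 (limma adjusted p = 0.00186). Of 19 neuropeptides and other subtype genes, 2 were called higher and 2 lower on day 12, at a median of -0.10. Pnoc, which encodes the precursor of the peptide nociceptin, was 0.93 higher (limma adjusted p = 0.00017) and Reln, a secreted guidance protein, 0.51 higher (limma adjusted p = 0.0311). Npy, the neuropeptide Y precursor, was at -0.78 (limma adjusted p = 0.000762) and the chemokine receptor gene Cxcr4 at -0.61 (limma adjusted p = 0.0162). The called subtype genes therefore moved both ways. Called or not, 12 of the 19 were lower on day 12 and 7 were higher. Somatostatin (Sst) was at -0.17 and not called (limma adjusted p = 0.423).

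Of 8 genes for GABA transport, breakdown and related functions, 0 were called higher and 2 lower on day 12, at a median of -0.19. Abat, the enzyme that breaks GABA down, was one of them at -0.49 (limma adjusted p = 0.02). Astrocytes use Abat as well. Slc32a1, which loads GABA into vesicles, was at -0.03 (limma adjusted p = 0.986), close to Gad1. On day 9, 0 transcription factors were higher and 1 lower of 11, and 1 subtype gene was higher and 2 lower of 19. In the GABA list 1 gene was higher and 1 lower of 8. The share of all probes called was 5.89% on day 9 and 5.47% on day 12. From day 5 to day 12, 6 of 8 genes of the GABA list were called higher and 0 lower in the controls, and 5 of 8 higher after depletion. Of all probes 23.6% and 17.0% were called in either direction. Astrocyte markers rose over the same days, 10 of 11 in both arms, and their part in the rise of this list was not tested. Of 10 genes of striatal projection neurons, the other GABAergic neurons of the forebrain, 1 was called higher and 2 lower on day 12. Of 8 markers of excitatory cortical neurons 1 was higher and 0 lower. Of 5 genes of proliferating cells and 2 detected microglial markers 0 were called, and 4 of 6 microglial markers on the array were never detected.

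The probes whose profile over the 6 group means was nearest to a member were found by the root mean square of the difference after centring. For Gad1 they included Arf5 (0.05) and Gap43 (0.06), against a range of 1.07 over its own group means. For Satb1 they were LOC499898 (0.05), Uck2 (0.05) and Crem (0.05), against a range of 1.28. For Calb2 they were Hrsp12 (0.05), Pon2 (0.06) and RGD1560523_predicted (0.08), against a range of 1.15. For Dlx5 they were Parp1 (0.04), Lsamp (0.04) and Sst (0.04). Among the members the nearest pair was Dlx2 and Dlx5 (0.12). These distances describe 6 means and were not tested.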

How the data were processed

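Signals are deposited bead-mean intensity values per probe, extracted by the authors with GenomeStudio (1.1.1 in the submitters' processing notes), with no normalization and no background subtracted per the file headers. The deposited detection p-value is unadjusted, from negative control beads. The number of arrays limits precision, since bead counts were not used.

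A probe was kept if its detection p-value did not exceed 0.02 on 1 or more of the 18 arrays. Their log2 values, computed from the deposited intensity, were Z-transformed per array after the study's methods and rescaled to the mean SD. R 4.3.3 and limma 3.58.1 (lmFit, eBayes) fitted 6 groups, with 12 residual degrees of freedom. The fit was tested on simulated data, with means and spread taken without replicate b of the day 9 controls. It called 75 of 100 simulated day 12 changes of 0.5 on the log2 scale and 99 of 100 changes of 1. The fit of the real data includes that array, so these counts do not carry over to it. The Z-ratio criteria of the methods were not applied. Background was inferred as the mean signal of probes with mid-range detection p-values.

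The members and lists were chosen with earlier results of these data known. Named genes were the 9 members, for detected members the 3 nearest probes, and at most the 4 largest called genes of a list, and some genes that this rule names are not reported here. The lists were further interneuron transcription factors, interneuron subtype genes, GABA handling, striatal and excitatory neurons, all neurons, astrocytes, oligodendrocyte lineage, microglia, endothelial cells with pericytes and fibroblasts, and proliferating cells.

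The deviations of control and CHD5 shRNA arrays of one letter had correlations of 0.27, 0.17 and 0.38 on day 5. They were 0.43, 0.15 and -0.20 on day 9 and 0.05, 0.15 and 0.01 on day 12. Arrays of different letters were not compared, so these values do not show whether the letters paired the arrays. The second measurements of the 6 replicate a arrays (correlation with the first 0.997 to 0.998) were used in an alternative only. The other alternatives were quantile normalization, median centring, neqc (offset 16), other detection filters, fits on the compared groups alone, array weights, replicate blocks, the other Satb1 probe and leaving out each array.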

Additional observations from a re-analysis of the deposited data

Results flagged for a closer look

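The effect of CHD5 shRNA on Dlx2 pointed in opposite directions on day 5 and day 12 on all arrays. On day 5 the 3 depleted arrays lay above the 3 controls, by 0.25, and on day 12 they lay below them, by -0.19. The change of the effect between these days was -0.44 (SE 0.19), with an unadjusted limma p of 0.0325. Its adjusted p was 0.626 over all probes, so the change did not pass the limit. Dlx2 was flagged for this opposite order on the same arrays, so the unadjusted p is not an independent test of it. By limma, 4 of 8 members had an unadjusted p under 0.05 for this change, against 6.75% of all probes. Calb2 (0.000529) and Satb1 (0.0194) had smaller ones. The share of all probes with such opposite order was not counted. Dlx2 is one of the dim probes, at 3.07 to 5.54 times background on those days.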

How the results depend on the processing

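Among the members, the lower Calb2 level on day 12 after depletion and the fall of Satb1 in the controls from day 5 to day 9 were called under all 28 alternatives with the same probe. Calb2 on day 12 ran from -0.83 to -0.54, and its highest limma adjusted p was 0.0379. The higher Satb1 level on day 9 was called under 22 of 28, with values from 0.30 to 0.58 and limma adjusted p from 0.00597 to 0.307. The cause of each shift was not tested. The fits on the compared groups alone have fewer degrees of freedom and another estimate of the spread.

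Counts of members called changed as follows, with the share of all probes called under the same setting in parentheses. For CHD5 shRNA against control on day 9 (1 in the main setting) the count was 0 under median centring (0.587%). With only the compared groups it was also 0 (0 probes), and it was 0 to 2 when leaving out 1 array. The 0 arose without replicate a (2.04%) or c (0.885%) of the day 9 CHD5 shRNA arrays. The 2 arose without replicate a (13.4%) or b (10.6%) of the day 9 controls. On day 12 (1) it was 5 with array weights (32.3%), 4 with only the compared groups (23.6%), 2 with neqc (7.43%) or quantile normalization (8.82%), and 1 to 3 when leaving out 1 array, the 3 arising without replicate b of the day 9 controls (13.0%). For the change of the effect (0) it was 1 with array weights (1.75%) or only the compared groups (1.70%). When leaving out 1 array it was 0 to 1, the 1 arising without replicate b of the day 9 controls (2.36%). From day 9 to day 12 in the controls (2) it was 4 with quantile normalization (6.93%), 1 with median centring (1.47%) and 0 with only the compared groups (0.0271%). With CHD5 shRNA (0) it was 6 with array weights (23.7%), 5 with only the compared groups (15.1%), 1 with neqc (1.93%), quantile normalization (2.52%) or both measurements of replicate a (1.45%), and 0 to 3 when leaving out 1 array, again 3 without replicate b of the day 9 controls (4.91%). From day 5 to day 9 with CHD5 shRNA (2) it was 5 with array weights (36.4%) and 1 with median centring (3.32%) or no detection filter (2.14%). The array weights gave that array 0.0199, and their estimation stopped before it converged.

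Signs turned for members that were not called, and for Satb1 with its undetected probe. Differences with CHD5 shRNA on day 9 were, for Dlx2, -0.0893 with array weights, -0.0244 with neqc, -0.0184 with quantile normalization and -0.0088 with the stricter detection filter. For Dlx5 they were 0.0255 with median centring, 0.0128 with both measurements and 0.0535 without a filter, and for Gad1 0.142 with median centring. Calb2 on day 5 was -0.0177 with array weights. Between days, Dlx1 from day 9 to 12 after depletion was -0.0244 with array weights, -0.0151 with neqc, -0.0149 with quantile normalization and -0.0027 with both measurements. In the controls, Dlx1 with median centring was -0.188 from day 5 to 9 and 0.116 from day 9 to 12, Satb1 from day 9 to 12 was 0.0396, and Dlx2 from day 5 to 9 with array weights was 0.0371. Dlx5 from day 5 to 9 was 0.0651 (neqc) and 0.0577 (quantile) in the controls and 0.0561 and 0.0494 after depletion. The undetected Satb1 probe gave -0.0559 for day 9, 0.0256 and 0.0294 for day 5 to 9 in control and depleted arrays, and 0.0091 for day 5 to 12 after depletion.

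Leaving out 1 array each moved these uncalled differences across 0. With CHD5 shRNA against control the ranges were -0.0642 to 0.0855 for Calb2 and -0.199 to 0.0349 for Lhx6 on day 5, -0.131 to 0.115 for Dlx2, -0.259 to 0.159 for Dlx5 and -0.166 to 0.0197 for Gad2 on day 9, and -0.102 to 0.0256 for Lhx6 on day 12. From day 5 to 9 in the controls they were -0.0766 to 0.345 for Dlx1, -0.224 to 0.019 for Dlx2, -0.328 to 0.0855 for Dlx5 and -0.23 to 0.0041 for Lhx6. From day 9 to 12 they were -0.343 to 0.0785 for Dlx1 and -0.355 to 0.0656 for Dlx5 in the controls and -0.143 to 0.124 for Dlx1 after depletion.

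With a replicate block by letter the Calb2 difference on day 12 was -0.62 (limma adjusted p = 0.00281) and the Satb1 difference on day 9 was 0.44 (0.0104). With the replicate block by day and letter the p-values were 0.0007 and 0.00656. Neither pairing changed a call of a member.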
